A study of Mus musculus with 9 samples.

Results

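The nuclear genes of respiratory complexes I, II, III and V were described in immortalized mouse podocytes after knockdown of Usp40, which encodes a deubiquitinase. They were taken by name from the deposited table, as the entries named Nduf with a, b, c, s or v and a number, Sdha to Sdhd, and those starting with Uqcr or Atp5, together with Cyc1 and Cycs. Names of assembly factors and pseudogenes were left out. The rule gave 71 of 25655 entries, of which 39 belong to complex I, 4 to complex II, 9 to complex III with Cyc1, and 18 to complex V, and 1 is the carrier gene Cycs. Of these, 68 had enough counts to be tested, among 11800 tested genes.

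The cells are a conditionally growing kidney line labelled wild-type, in which interferon-γ and a permissive 33 °C maintain growth and a shift to 37 °C without it for 10 to 14 days lets them differentiate. They received Silencer Select Negative Control No.1 (control), Usp40 siRNA 1 or Usp40 siRNA 2, all by lipid transfection, and poly(A) RNA was sequenced 48 h later, with 3 libraries per group and 9 in all. The labels call the libraries biological replicates of 1 line and do not state separate cultures, so p-values reflect only how far these libraries differ, which may be technical. In bulk RNA, fewer cells of a type and less RNA per cell cannot be told apart.

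Depth ran from 9786270 to 13675426 gene counts per library, of which the 71 genes took 1.06 to 1.41%. Usp40 stood at 31.8, 33.8 and 40.9 CPM (counts scaled to library size) in control libraries. The siRNA 1 libraries held 14.7, 15.6 and 16.9 CPM and the siRNA 2 libraries 19.2, 17.3 and 21.2 CPM, all below every control. Its log2 fold change was -1.18 ± 0.12 (SE) with siRNA 1 (adjusted p = 0.000727, edgeR) and -0.88 ± 0.11 with siRNA 2 (adjusted p = 0.00047). The podocyte label had little support from defining genes, since the slit diaphragm gene Nphs1 held 2 counts over all libraries and the podocyte transcription factor gene Wt1 held 40, Ptpro and Tcf21 0, against 82923 for the tubular cadherin gene Cdh16. Both siRNAs were compared with the same 3 control libraries.

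The respiratory chain passes electrons from NADH through complex I, or from succinate through complex II, to coenzyme Q, then through complex III and the mobile carrier cytochrome c to complex IV. Complexes I, III and IV pump protons across the inner mitochondrial membrane, and complex V, the ATP synthase, uses their return to make ATP. Most subunits are encoded in the nucleus, complex II wholly so, and a few hydrophobic subunits of the other complexes in the mitochondrial genome.

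Levels of different genes were compared in TPM, a unit that corrects for length. Complex V held 42.9% ± 0.589 (SD, n = 3) of the summed TPM of the 71 genes in control libraries. The sum was 10860 ± 753 TPM (mean ± SD, n = 3) for complex V, 9713 ± 854 for complex I, 3877 ± 333 for complex III, 863 ± 27.2 for complex II and 41.9 ± 5.78 for Cycs. These sums follow the number of genes in each complex as well as their levels.

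**Figure D1:**
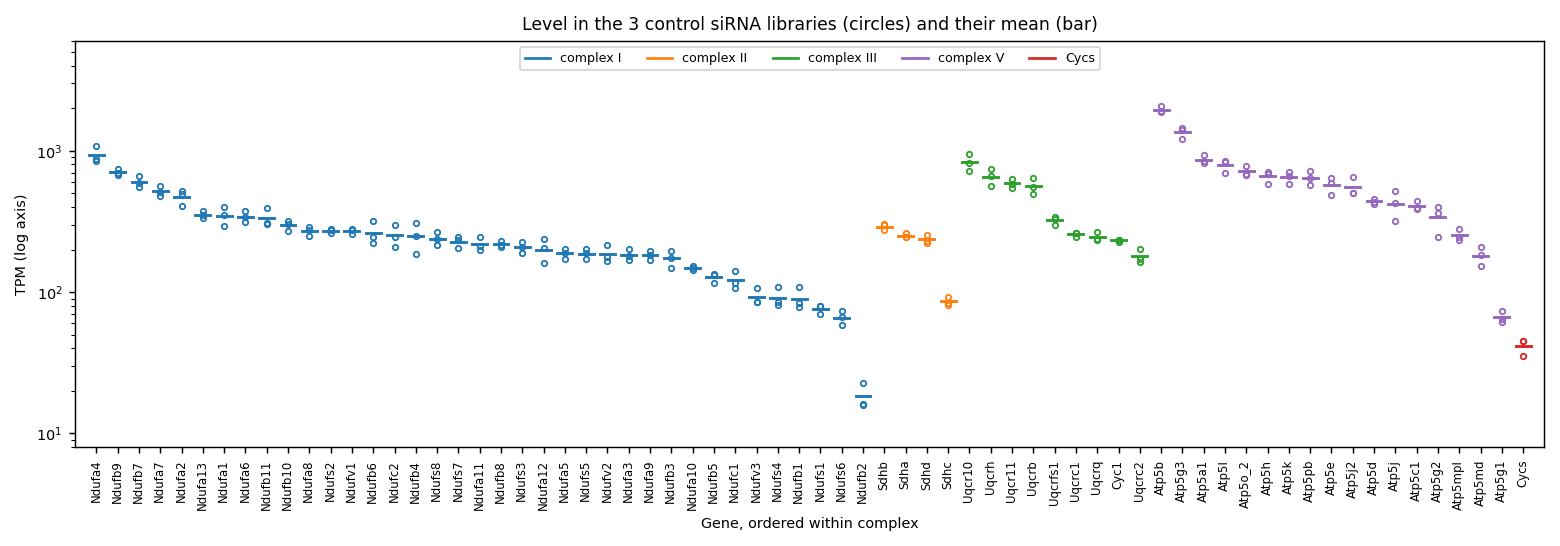
Level of each tested gene in TPM (log axis) in the 3 control libraries (circles) with their mean (bar), ordered within complexes I, II, III and V, with Cycs at the right. Atp5b is highest at 1953 TPM, Ndufb2 is lowest at 18.3 TPM, and complexes II and III span narrower ranges than complexes I and V.

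In complex V, Atp5b, the gene of the catalytic beta subunit of the F1 head, was the highest at 1909, 2060 and 1888 TPM in the control libraries. Atp5a1, the gene of the alpha subunit that alternates with beta in equal copies, stood at 844, 932 and 822 TPM, and Atp5c1, the gene of the central gamma shaft, at 444, 391 and 388 TPM. The beta values lay above every alpha value and the alpha values above every gamma value. Atpif1, which encodes an inhibitor of the enzyme and is outside the name rule, averaged 808 ± 143 TPM (mean ± SD, n = 3), with 273, 171 and 210 CPM.

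The rotating c-ring of complex V is built from 1 mature protein that the genes Atp5g1, Atp5g2 and Atp5g3 all encode behind different import signals. Atp5g3 was the leading gene at 1456, 1411 and 1206 TPM, Atp5g2 followed at 401, 247 and 364 TPM, and Atp5g1 was the lowest tested gene of complex V at 73.3, 61.4 and 64.5 TPM. The 3 genes did not overlap in any library. Over the 78 codons with the same translation, Atp5g1 and Atp5g2 shared 84.6% of bases, Atp5g1 and Atp5g3 78.6%, and Atp5g2 and Atp5g3 77.4%. A stretch of 120 of these bases is shown because, within it, reads can be assigned to 1 of the genes only through the differing bases. These are the 33 positions in capitals (coding strand of the canonical transcripts, GENCODE vM39, GRCm39). Outside the shared codons the transcripts differ further. The stretches are bases 262 to 381 of the Atp5g1 transcript on chromosome 11, 345 to 464 of that of Atp5g2 on chromosome 15 and 595 to 714 of that of Atp5g3 on chromosome 2, all on the minus strand.
Atp5g1: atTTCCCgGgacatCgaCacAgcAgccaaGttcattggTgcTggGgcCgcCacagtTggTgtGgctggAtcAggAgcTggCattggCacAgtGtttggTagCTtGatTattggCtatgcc
Atp5g2: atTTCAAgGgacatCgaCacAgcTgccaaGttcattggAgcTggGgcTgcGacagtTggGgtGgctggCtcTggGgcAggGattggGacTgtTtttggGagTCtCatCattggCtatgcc
Atp5g3: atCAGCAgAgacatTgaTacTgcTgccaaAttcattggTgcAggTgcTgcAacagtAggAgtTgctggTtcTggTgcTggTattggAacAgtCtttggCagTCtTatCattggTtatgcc
Over all 78 shared codons, the longest identical run between a pair of the genes was 20 bases, in Atp5g1 and Atp5g2, shorter than the 36-base reads. Elsewhere in the genome the match was closer: 84.9% of the 36-base windows of the Atp5g1 transcript and 88.7% of those of Atp5g2 occur exactly at another place in GRCm39, but 0 of those of Atp5g3. How counting placed such reads is not stated, so the levels of Atp5g1 and Atp5g2 are uncertain. The authors' lengths are not given as such and were derived from their counts and RPKM. That for Atp5g1, 5296 bp against 612 bp for its canonical transcript, also lowers its TPM. Per kilobase of the canonical transcript Atp5g1 came 9th of 17 in complex V, with the means of the c-ring genes in the same order.

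In complex I the highest gene was Ndufa4 at 1072, 874 and 846 TPM, whose product was named for complex I and has since been assigned to complex IV. The next was Ndufb9, the gene of an accessory subunit of the membrane arm, at 745, 691 and 670 TPM, below every Ndufa4 value. That rank rests on the authors' length of 759 bp, since per kilobase of its canonical transcript of 4197 bp Ndufb9 came 30th in complex I. The core genes of the electron path stood lower. Ndufv1, the gene of the NADH-binding subunit, stood at 274, 281 and 257 TPM, Ndufs7, which encodes the subunit with the last iron-sulfur cluster before coenzyme Q, at 246, 233 and 204 TPM, and Ndufs1, which encodes the largest iron-sulfur subunit, at 80.1, 79.3 and 70.1 TPM. Ndufv1 lay above Ndufs7 in every control library, and Ndufs1 lay below both. Ndufb2, the gene of another membrane-arm accessory subunit, was the lowest at 22.8, 16.2 and 16.0 TPM, with a long derived length of 4717 bp. Per kilobase of the canonical transcript, Ndufs6 was the lowest instead.

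In complex II, Sdhb, the gene of the iron-sulfur subunit, averaged 291 ± 13.5 TPM, Sdha, the gene of the flavoprotein that oxidizes succinate, 250 ± 9.84 TPM, Sdhd 236 ± 16.4 TPM and Sdhc 86.0 ± 5.93 TPM (mean ± SD, n = 3). Sdhc and Sdhd encode the membrane anchors that bind coenzyme Q. Sdha and Sdhd overlapped between libraries, whereas Sdhb lay above and Sdhc below all others. This order depends on the lengths used: per kilobase of the canonical transcript, a setting added after the data were seen, Sdhb came last of the 4, since that transcript has 4030 bp against the authors' 1231 bp.

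In complex III, Uqcr10, a small subunit near cytochrome c1, was the highest at 945, 721 and 824 TPM, and Uqcrc2, which encodes a core subunit on the matrix side, was the lowest at 203, 164 and 171 TPM. Per kilobase of the canonical transcript, Uqcr11 was the lowest instead, with 2746 bp against the authors' 480 bp. Uqcrc1, the core partner of Uqcrc2, stood at 261, 261 and 247 TPM, and Uqcrfs1, the gene of the Rieske iron-sulfur subunit, at 328, 338 and 300 TPM. Cyc1, the gene of cytochrome c1, stood at 235, 228 and 235 TPM. The Cyc1 values all lay below the lowest value of Uqcrq, the gene of a small subunit that binds beside cytochrome b, at 267, 235 and 237 TPM. Cycs, the gene of cytochrome c itself, was lower than all of these at 45.1, 45.4 and 35.2 TPM. Of the 36-base windows of the Cycs transcript, 40.2% occur elsewhere in GRCm39, so its level is uncertain as well.

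The 3 entries that were not tested were close to 0. Ndufa4l2, a paralog of Ndufa4 known as a hypoxia-responsive gene, had 1, 2 and 0 counts in control, 3, 3 and 6 in siRNA 1 and 0, 1 and 3 in siRNA 2 libraries. Atp5o_1 had 3, 0 and 1 counts in control libraries and 0 in the others, and its span overlaps that of Atp5o_2, the entry with the counts of the stalk subunit OSCP. Ndufb11b had 0 counts in every library, which allows up to 3 counts over all of them (counting error only).

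With siRNA 1, the test called 0 of the 68 genes in either direction (edgeR quasi-likelihood, adjusted p under 0.05 over all genes tested), where 0.627% of all tested genes rose and 1.03% fell, 1.65% in either direction. At an unadjusted p under 0.05, 2 genes were lower and 0 higher, while 800 and 808 of all 11800 genes were. DESeq2 and limma-voom also called 0. The median log2 fold change was -0.09 over the 68 genes and 0.01 over all tested genes. It was negative for 60 of 68 genes, but 23 of 68 without control replicate 1, where the median was 0.02, and without siRNA 1 replicate 2 the median was 0.00. Cycs had the most negative value, at -0.35 ± 0.11 (adjusted p = 0.171). By complex, it was -0.23 ± 0.12 (0.411) in complex I, for the accessory subunit gene Ndufs5, -0.21 ± 0.11 (0.426) in complex V, for Atp5g3, and -0.18 ± 0.08 (0.329) in complex III, for Cyc1. None of these passed. Without control replicate 3, Cycs passed and the count was 1.

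With siRNA 2, 4 of the 68 genes fell and 0 rose, beside a background of 8.4% of all tested genes that fell and 7.81% that rose, 16.2% in either direction. At that threshold the share of the respiratory genes that fell was no larger than that of all genes. At an unadjusted p under 0.05, 27 of the 68 were lower and 0 higher, while 1976 and 2002 of all 11800 genes were, a larger share of the respiratory genes than of all genes. DESeq2 called 8 of the 68 and limma-voom 3. The 4 genes called by edgeR were Cycs (GRCm39, chromosome 6, 50539543 to 50543518, minus strand), Uqcrq of complex III (chromosome 11, 53318749 to 53321658, minus strand), and the accessory subunit genes of complex I Ndufa3 (chromosome 7, 3620372 to 3623326, plus strand) and Ndufb9 (chromosome 15, 58805605 to 58811337, plus strand). No gene of complexes II and V passed in edgeR, while the DESeq2 calls included Atp5h and Atp5pb of complex V. The median log2 fold change was -0.24 over the 68 genes and -0.01 over all tested genes, and it was negative for 66 of 68. The count turned on single libraries: it was 2 with control replicate 1 left out and 19 with control replicate 3 left out. Leaving out siRNA 1 replicate 1, 2 or 3 gave 7, 12 or 2 calls, and for siRNA 2 replicate 1, 2 or 3 the count was 1, 2 or 1. The siRNA 1 libraries enter through the shared estimate of the spread.

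**Figure D2:**
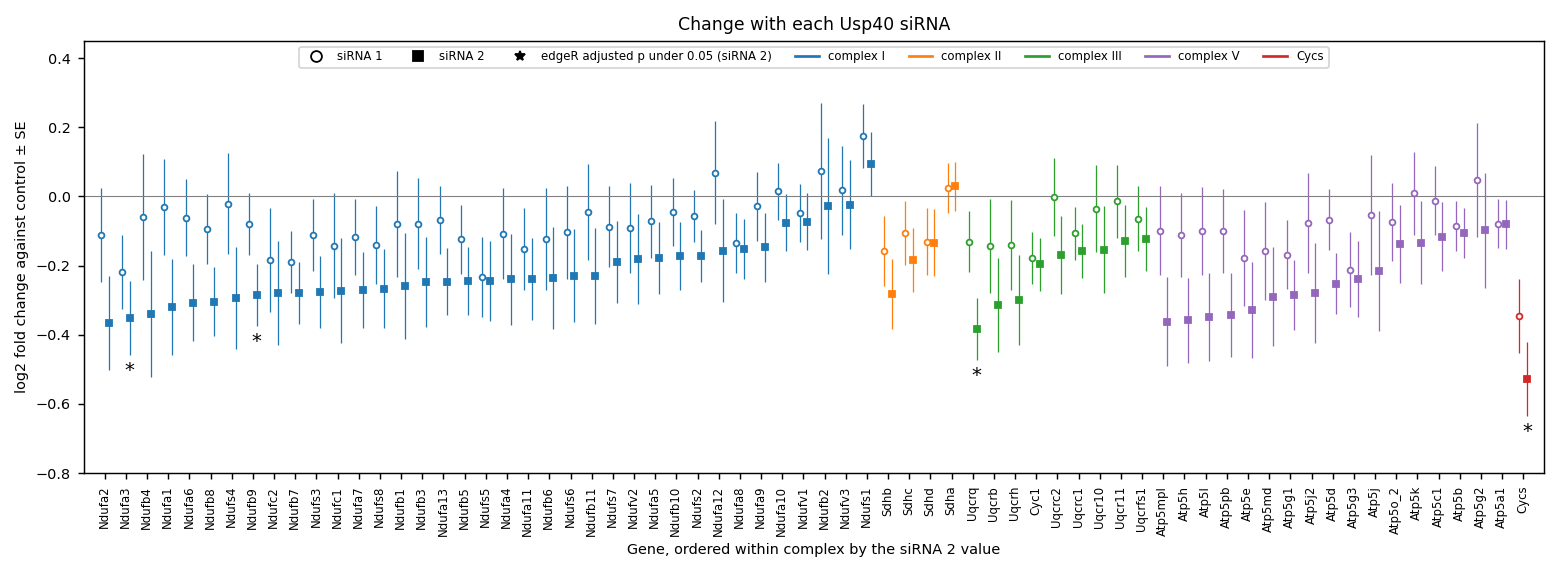
The log2 fold change against control (± SE) of each tested gene with siRNA 1 (open circles) and siRNA 2 (filled squares), by complex and ordered by the siRNA 2 value, with asterisks for an edgeR adjusted p under 0.05 with siRNA 2. Most values lie below 0 with both siRNAs, Ndufs1 and Sdha lie above 0 with both, and Cycs is the lowest.

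Cycs stood at 63.6, 57.3 and 45.6 CPM in control, at 45.4, 40.9 and 44.6 CPM in siRNA 1 and at 38.2, 38.6 and 38.6 CPM in siRNA 2 libraries. All siRNA 2 libraries lay below all siRNA 1 libraries and these below all controls, though the gap between the highest siRNA 1 and the lowest control library was small. The log2 fold change with siRNA 2 was -0.53 ± 0.11 (edgeR adjusted p = 0.00812), and it passed under each of the 18 alternatives, with adjusted p between 0.000487 and 0.0401. For the average of both siRNAs it was -0.44 ± 0.09 (adjusted p = 0.0166), the single call among the 68 genes in that comparison, where 4.28% of all tested genes fell and 3.04% rose, 7.32% in either direction. That call was lost without control replicate 2 (adjusted p = 0.0889), which left a count of 0, while without control replicate 3 the count was 5. The difference between the siRNAs was 0.18 ± 0.11 (adjusted p = 0.356).

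Uqcrq stood at 220.5, 174 and 179 CPM in control, at 183, 164 and 177 CPM in siRNA 1 and at 144, 151 and 146 CPM in siRNA 2 libraries. The siRNA 2 libraries lay below all others, and the siRNA 1 libraries overlapped the controls. The log2 fold change with siRNA 2 was -0.38 ± 0.09 (edgeR adjusted p = 0.0156). It did not pass without siRNA 2 replicate 1 (adjusted p = 0.0656) or without siRNA 2 replicate 3 (0.0708), and it passed under the other 16 alternatives.

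Ndufa3 stood at 73.3, 59.1 and 56.6 CPM in control, at 59.6, 47.7 and 55.1 CPM in siRNA 1 and at 50.4, 49.8 and 47.9 CPM in siRNA 2 libraries. Ndufb9 stood at 237, 197 and 196 CPM in control, at 213, 179.6 and 202 CPM in siRNA 1 and at 176, 176 and 164 CPM in siRNA 2 libraries. In both genes the siRNA 2 libraries lay below all controls, with control replicate 1 well above the other 2. With siRNA 2 the log2 fold change was -0.35 ± 0.11 for Ndufa3 (edgeR adjusted p = 0.0437) and -0.29 ± 0.09 for Ndufb9 (0.0496). These calls were close to the threshold, and they were lost under 9 of 18 alternatives for Ndufa3 and 12 of 18 for Ndufb9. Without control replicate 1 the values were -0.23 (adjusted p = 0.114) and -0.19 (0.124).

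**Figure D3:**
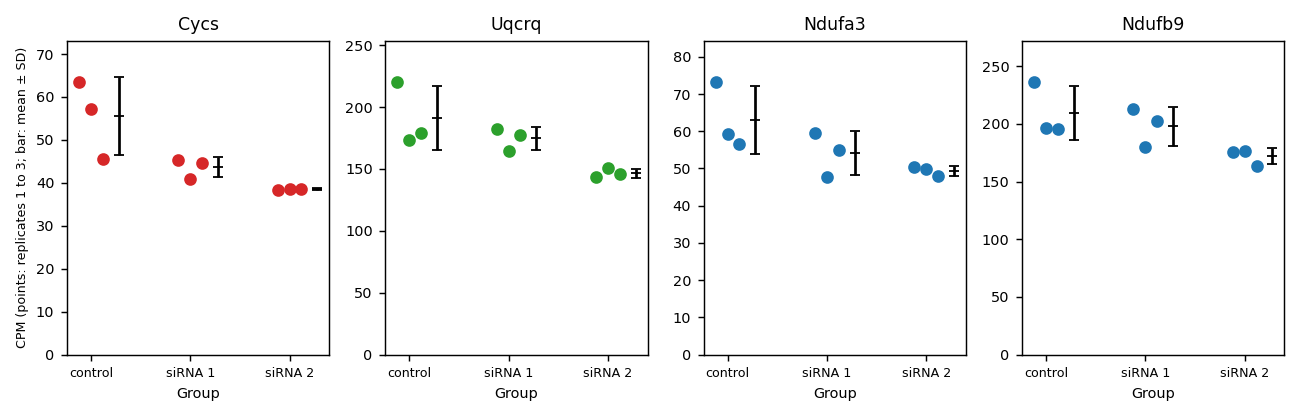
CPM of the 4 genes called with siRNA 2, per library (points, replicates 1 to 3 from left to right) with the group mean ± SD (bar, n = 3); axes start at 0. The siRNA 2 libraries lie below all control libraries in each panel, and control replicate 1 is the highest library of each gene.

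The promoters of Cycs and Ndufa3, the genes with the most negative average change that had a promoter entry, are shown because regulators of respiratory genes are known to act there. NRF1, ETS factors such as GABP, and YY1 are known activators of many of them, and CREB acts on Cycs. Each sequence is 300 bases from RefSeq, on the coding strand, from 250 before to 50 after the annotated start, and capitals mark the motif matches, namely TGACGTCA (cyclic AMP response element) and GCATGCGC (a shorter NRF1 form) in Cycs, and AAGATGGC (a shorter YY1 form) in Ndufa3.
Cycs (GRCm38.p6, chr6:50566520-50566819, minus strand): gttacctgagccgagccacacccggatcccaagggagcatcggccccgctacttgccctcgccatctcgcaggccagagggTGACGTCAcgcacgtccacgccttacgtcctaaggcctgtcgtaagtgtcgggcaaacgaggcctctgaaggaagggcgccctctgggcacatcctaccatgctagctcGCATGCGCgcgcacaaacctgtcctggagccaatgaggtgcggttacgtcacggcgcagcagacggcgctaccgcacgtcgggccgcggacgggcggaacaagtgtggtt
Ndufa3 (GRCm38.p6, chr7:3617123-3617422, plus strand): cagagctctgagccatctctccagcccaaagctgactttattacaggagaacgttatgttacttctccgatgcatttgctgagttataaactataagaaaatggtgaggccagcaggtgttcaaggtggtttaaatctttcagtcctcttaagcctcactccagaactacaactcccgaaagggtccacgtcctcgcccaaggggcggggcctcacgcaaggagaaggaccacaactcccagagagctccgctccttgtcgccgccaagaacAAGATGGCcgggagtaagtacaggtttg
Promoters were matched for 58 of the 71 genes, 57 of them tested. On either strand, GCATGCGC with GC before it (the full NRF1 form) occurred in 4 of the 57 (7.02%) and in 1.07% of 27025 genes with a promoter, CCGGAAG (ETS) in 14 (24.6%) and 9.93%, and AAGATGGCG (YY1) in 7 (12.3%) and 1.64%. At least 1 of the 3 occurred in 23 of 57 (40.4%) and in 12.1% of all genes. The 57 had enough counts to be tested, whereas the 27025 were not limited to tested genes. A comparison with tested genes alone was not made. The shorter forms and TGACGTCA were searched after the sequences had been seen: GCATGCGC, which the full NRF1 form contains, occurred in 17.5% against 3.05%, AAGATGGC, contained in the full YY1 form, in 17.5% against 3.19%, and TGACGTCA in 8.77% against 2.03%. These are matches of letters, not binding sites.

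Complex by complex, the changes with siRNA 2 were alike in sign. The median log2 fold change was -0.24 in complex I (negative in 36 of 37 tested genes), -0.16 in complex II (3 of 4), -0.17 in complex III (9 of 9) and -0.25 in complex V (17 of 17). With siRNA 1 the medians were -0.08 (32 of 37), -0.12 (3 of 4), -0.11 (9 of 9) and -0.08 (15 of 17). Genes of a complex share libraries and are not independent, and these medians depend on control replicate 1 and on gene length, as described further on.

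Among complex I genes, the most negative value with siRNA 2 was that of Ndufa2, a small accessory subunit gene of the matrix arm, at -0.37 ± 0.14 (edgeR adjusted p = 0.0865). Ndufs1 was the most positive with both siRNAs, at 111, 98.5 and 89.2 CPM in control, 125, 103 and 109 CPM in siRNA 1 and 103, 108 and 108 CPM in siRNA 2 libraries. The groups overlapped, and the log2 fold changes of 0.17 ± 0.09 with siRNA 1 (adjusted p = 0.443) and 0.09 ± 0.09 with siRNA 2 (0.503) did not pass. Ndufv1 at -0.05 ± 0.08 and -0.07 ± 0.08, and Ndufs7 at -0.09 ± 0.12 and -0.19 ± 0.12, did not pass with siRNA 1 and siRNA 2 either.

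In complex II, Sdhb was the most negative, at -0.16 ± 0.10 with siRNA 1 and -0.28 ± 0.10 with siRNA 2 (edgeR adjusted p = 0.0782). Sdha stood at 321, 307 and 293 CPM in control, 332, 302 and 302 CPM in siRNA 1 and 329, 312 and 298 CPM in siRNA 2 libraries. All 3 groups overlapped, with log2 fold changes of 0.02 ± 0.07 and 0.03 ± 0.07 (adjusted p = 0.911 and 0.795). Sdhc at -0.11 ± 0.09 and -0.18 ± 0.09 and Sdhd at -0.13 ± 0.10 and -0.13 ± 0.10 did not pass.

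In complex III, Cyc1 was a gene whose knockdown libraries, like those of Cycs, all lay below the controls with both siRNAs, at 189.8, 165 and 174 CPM in control, 163, 142 and 162 CPM in siRNA 1 and 159, 152 and 151 CPM in siRNA 2 libraries. The distance between the lowest control and the highest siRNA 1 library was small, and the log2 fold changes of -0.18 ± 0.08 and -0.20 ± 0.08 did not pass (edgeR adjusted p = 0.329 and 0.0977). Uqcrc1 at -0.11 ± 0.08 and -0.16 ± 0.08, Uqcrc2 at -0.00 ± 0.11 and -0.17 ± 0.11, and Uqcrfs1 at -0.06 ± 0.09 and -0.12 ± 0.09 did not pass with siRNA 1 and siRNA 2.

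In complex V, Atp5mpl, the gene of a small membrane subunit, had the most negative value with siRNA 2, at -0.36 ± 0.13 (edgeR adjusted p = 0.0739), and Atp5a1 the least negative, at -0.08 ± 0.07 (0.439). Atp5b and Atp5c1 stood at -0.11 ± 0.07 and -0.12 ± 0.10 with siRNA 2, and at -0.08 ± 0.07 and -0.01 ± 0.10 with siRNA 1. Of the c-ring genes, Atp5g1 stood at -0.28 ± 0.10 (0.0735), Atp5g3 at -0.24 ± 0.11 (0.144) and Atp5g2 at -0.10 ± 0.17 (0.701) with siRNA 2. With siRNA 1, Atp5g2 was the most positive of complex V at 0.05 ± 0.17. None of these passed, nor did Atpif1, at 0.04 ± 0.14 and -0.17 ± 0.14.

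Libraries were also compared by whether groups overlapped. With siRNA 2, 27 of 68 genes had all libraries below all controls, where 19.1% of all tested genes did, and 0 had all above, where 19.5% did. They were 14 genes of complex I, 2 of complex II, 4 of complex III, 6 of complex V, and Cycs. With siRNA 1 there were 2 such genes, Cycs and Cyc1, where 8.65% of all tested genes did, and 0 had all above (7.94%). Both lay below all controls in all 6 knockdown libraries, as did 4.64% of all tested genes.

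Compared directly, 67 of 68 genes were higher with siRNA 1 than with siRNA 2 by their log2 fold change, at a median of 0.13 beside 0.00 over all tested genes. With the length offset described further on, 38 of 68 were higher, at a median of 0.03. The test called 0 of them (of all tested genes 4.25% were higher and 2.49% lower, 6.74% in either direction), and 3 were higher at an unadjusted p under 0.05, while 1346 of all 11800 genes were. DESeq2 and limma-voom called 0 as well. The count was 1 without control replicate 1, namely Uqcrq. Uqcrq differed by 0.25 ± 0.09 (edgeR adjusted p = 0.125) with all libraries.

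Within groups the genes moved together. Control replicate 1 was the highest control library for 68 of 68 genes in CPM, siRNA 1 replicate 1 was the highest of its group for 64 and siRNA 1 replicate 2 the lowest for 67, and siRNA 2 replicate 3 the lowest of its group for 55. Relative to the mean of the controls, the median over the 68 genes on the log2 CPM scale was 0.219, -0.078 and -0.125 in control, 0.08, -0.27 and -0.058 in siRNA 1, and -0.22, -0.162 and -0.283 in siRNA 2 replicates 1 to 3. The distance between control replicates 1 and 3 was thus larger than the median change with either siRNA.

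**Figure D4:**
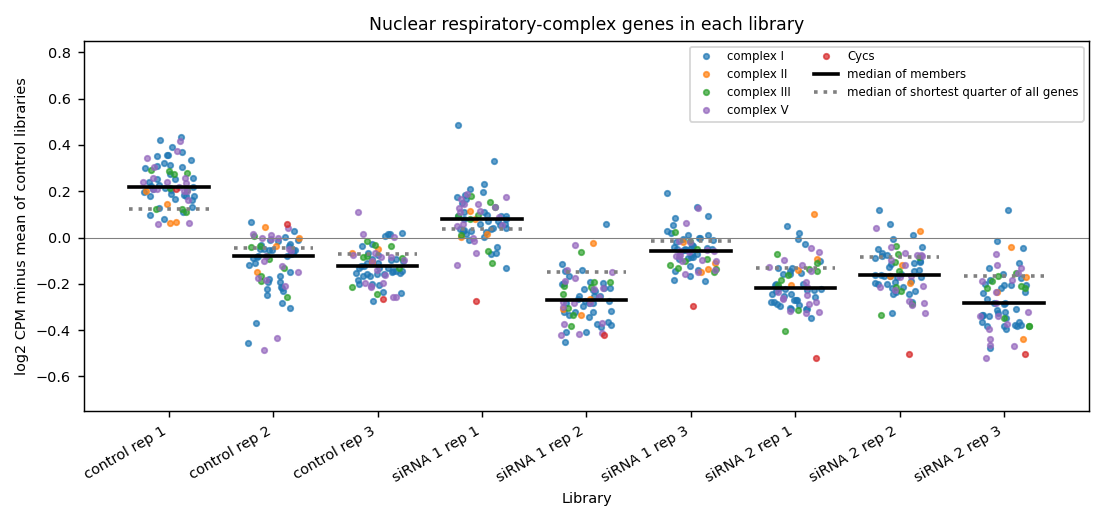
Difference of log2 CPM from the mean of the control libraries for each tested gene (points, coloured by complex) in the 9 libraries, with the median of the 68 genes (black bar) and of the shortest of 4 length classes of all tested genes (dotted bar). Control replicate 1 lies high and siRNA 1 replicate 2 low relative to its group, and the dotted bars move in the same direction as the black ones.

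Gene length moved with these values. By lengths derived from the deposited counts and RPKM, the 68 genes had a median of 1231 bp, against 3801 bp over all tested genes. Of the 68, 58 lay in the shortest of 4 length classes of nearly equal size. Over that class of all genes, the medians were 0.125, -0.045 and -0.072 in control, 0.035, -0.151 and -0.016 in siRNA 1, and -0.13, -0.086 and -0.168 in siRNA 2 replicates 1 to 3, while the longest of the 4 classes had the opposite sign in each library. With siRNA 2 the median log2 fold change of all genes ran from -0.137 in the shortest class through -0.036 and 0.052 to 0.145 in the longest. Across genes, which share libraries and are not independent, the Spearman correlation of log2 fold change with length was 0.384 over all tested genes and 0.343 over the 68 with siRNA 2, and 0.255 and 0.205 with siRNA 1.

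With a length offset fitted in each library, the median of the 68 genes was -0.06 with siRNA 2 (negative in 51) and -0.04 with siRNA 1 (negative in 49). By complex it was -0.06, -0.04, -0.05 and -0.07 in complexes I, II, III and V with siRNA 2. The calls with siRNA 2 were then Cycs at -0.50 ± 0.10 (edgeR adjusted p = 0.00264), Uqcrq at -0.27 ± 0.06 (0.00735) and Ndufb8, an accessory subunit gene of complex I, at -0.24 ± 0.08 (0.0361), where 19.9% of all tested genes were called. Ndufa3 and Ndufb9 moved to -0.14 (adjusted p = 0.114) and -0.07 (0.412). The lengths are the authors', and that of Ndufb8 was 2690 bp against 682 bp for its canonical transcript. Below 600 bp the offset rests on 54 genes, 9 of them among the 68. Without control replicate 1 the median with siRNA 2 was -0.10 (negative in 59), and 2 genes were called. The part of library quality in these values was not tested.

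**Figure D5:**
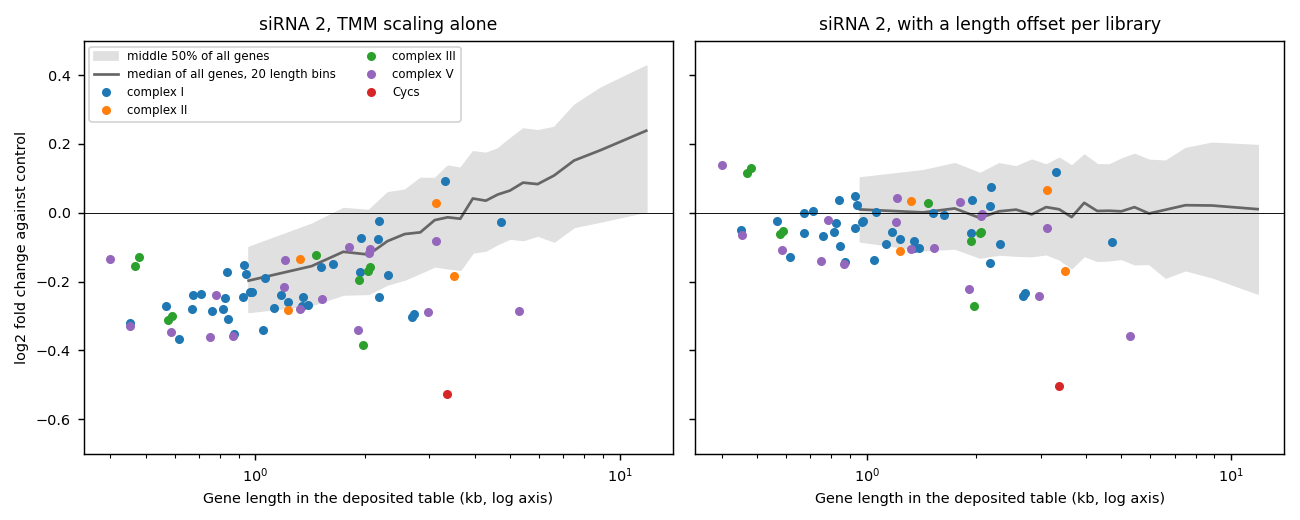
The log2 fold change with siRNA 2 against gene length (log axis), with TMM scaling alone (left) and with a length offset per library (right). Lengths were derived from the deposited counts and RPKM, although the axis names the deposited table. Points are the 68 genes, the line is the median of all tested genes in 20 length bins, and the band their middle 50%. With TMM scaling alone most points are below 0 and close to the falling left end of the line, with the offset they centre near -0.06, and Cycs stays below the band in both panels.

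Some genes stood apart in 1 control library. In control replicate 2, 5 of 68 genes (7.35%, against 2.86% of all tested genes) lay more than 0.3 below the other 2 controls on the log2 scale, with Atp5g2 at 303, 167 and 253 CPM, Ndufb4 at 135, 72.6 and 101 CPM, and Atp5j, the gene of coupling factor 6, at 260, 144 and 196 CPM the farthest. They were singled out after their values were seen. The others were Ndufa12 and Ndufa1, which like Ndufb4 are accessory subunit genes of complex I. Of their 36-base windows, 42.5% occur elsewhere in the genome for Ndufb4, 26.7% for Ndufa12, 13.2% for Ndufa1 and 7.17% for Atp5j, beside the 88.7% of Atp5g2. Such repeated windows were also frequent for Ndufs5 (78.8%), Atp5l (72.2%) and Uqcrb (68.6%), and rare for Uqcrq (2.66%), Ndufb9 (2.59%) and Ndufa3 (0). Cycs, also called with siRNA 2, had 40.2%, and how such reads bear on its change was not tested. The sources do not state whether counting was stranded, and Ndufa3 overlaps the opposite-strand gene Tfpt by 4 bp.

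Genes around the complexes were described from lists. Of 33 tested assembly factor genes, 2 fell with siRNA 2, where 8.4% of all tested genes did. They were Ndufaf3, which acts early in complex I assembly, at -0.43 ± 0.13 (edgeR adjusted p = 0.0474), and Timmdc1, which acts on its membrane arm, at -0.27 ± 0.08 (0.0327). With siRNA 1, 0 passed, and 6 were lower at an unadjusted p under 0.05, while 800 of all 11800 tested genes were. In the average of both, Timmdc1 at -0.25 ± 0.06 (0.0374) and Atpaf1, which assembles the F1 head, at -0.37 ± 0.09 (0.0365) fell, as did 4.28% of all tested genes. The list's median was -0.10 with siRNA 1 and -0.16 with siRNA 2. Ndufab1, the acyl carrier subunit gene outside the name rule, stood at -0.10 ± 0.09 and -0.20 ± 0.09 and did not pass.

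Of 11 tested nuclear genes of complex IV, 1 fell with siRNA 2, where 8.4% of all tested genes did. It was Cox5a, at 202, 158 and 150.2 CPM in control, 158, 128 and 144 CPM in siRNA 1 and 65.5, 55.6 and 52.5 CPM in siRNA 2 libraries. Its siRNA 2 libraries lay far below all others, with a log2 fold change of -1.56 ± 0.12 (edgeR adjusted p = 4.07e-05), and its difference between the siRNAs also passed (1.31 ± 0.12, adjusted p = 0.000131). The median of the 11 was -0.21 with siRNA 2 and -0.08 with siRNA 1, where 0 passed.

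Of the 13 genes of the mitochondrial genome, 3 fell with siRNA 2, where 8.4% of all tested genes did. mt-Nd1 and mt-Nd3, which encode membrane subunits of complex I, stood at -0.39 ± 0.11 (edgeR adjusted p = 0.0325) and -0.47 ± 0.14 (0.0438), and mt-Co2, a complex IV gene, at -0.29 ± 0.09 (0.0431). With siRNA 1, 0 passed, and the medians were 0.11 with siRNA 1 and -0.18 with siRNA 2. Libraries of 1 group differed here too, with medians on the log2 CPM scale of 0.17, -0.35 and 0.14 in control replicates 1 to 3 relative to their mean.

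Of 13 regulator genes, Gabpb1, which encodes the beta subunit of GABP, fell with siRNA 2, at -0.40 ± 0.08 (edgeR adjusted p = 0.00896), and in the average, at -0.31 ± 0.07 (0.0267). Of all tested genes, 8.4% fell with siRNA 2 and 4.28% in the average. The other regulator genes did not pass, and 0 passed with siRNA 1, with list medians of -0.04 and 0.04 with siRNA 1 and siRNA 2. Of 13 coenzyme Q genes, 3 fell and 1 rose with siRNA 2, beside 8.4% and 7.81% of all tested genes. Coq10b, whose product binds coenzyme Q, stood at 30.6, 30.8 and 24.1 CPM in control, 22.9, 21.1 and 24.9 CPM in siRNA 1 and 16.1, 18.2 and 16.0 CPM in siRNA 2 libraries, so that only the siRNA 2 libraries lay below all controls. Its log2 fold change was -0.76 ± 0.11 (edgeR adjusted p = 0.0014). Its relative Coq10a stood at -0.47 ± 0.10 (0.0113), Coq2, which joins the ring to the side chain, at -0.41 ± 0.07 (0.00271), and Coq8a, an atypical kinase gene, at 0.40 ± 0.12 (0.0412). With siRNA 1, 0 of the 13 passed, and the medians were -0.02 with siRNA 1 and -0.13 with siRNA 2.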

How the data were processed

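Per the file headers, the authors deposited per-library gene counts, RPKM, TPM and a signal (scaled CPM), with their own comparisons as log2 fold change, signed fold and p-values, which were not used here. The 4 columns of largest group means belong to no sample and were not used either. Per the labels' protocols, paired 36 bp reads from poly(A) RNA, in batch 1, were trimmed in CLC Genomics Workbench 23.02. The submitters' processing notes name GRCm39 and DESeq2, while these sources do not name the annotation release, strand use or placement of repeated reads.

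Deposited counts of all genes were tested with edgeR 4.0.16 (filterByExpr, TMM, robust quasi-likelihood, group as the only term, 9 libraries), with Benjamini-Hochberg adjustment over 11800 genes and a threshold of 0.05. Standard errors were derived from the F value. CPM used TMM-scaled library sizes, and log2 CPM a pseudocount of 0.5. The length offset was a lowess curve (span 0.3) of each library's log ratio on log length. Lengths were derived from the deposited counts and RPKM, as the median over libraries. DESeq2 1.42.0 and limma-voom 3.58.1 were alternatives. The main edgeR test and limma-voom were tried on simulated counts without a length trend. DESeq2 and the length offset were not. Repeated windows are exact 36-base matches in GRCm39. No library repeated another.

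The members and lists were chosen with earlier results of these data known. Named were all genes called, the extremes of level and change in each complex, core subunits, c-ring genes and untested entries, and up to 4 called genes per list and comparison. No molecular identifiers are named, so floors cover counting error only.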

Additional observations from a re-analysis of the deposited data

How the results depend on the processing

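The number of respiratory genes called with siRNA 2, 4, became 2 with total counts alone, 8 with DESeq2 and 7 with the groups of the comparison alone, and it was within 1.5 times of 4 with the other scaling, without the filter, with limma-voom and with either length offset. In the average the 1 call became 2 without the filter, with DESeq2, with the length offset and with the replicate block plus length offset. Between the siRNAs the count of 0 became 1 with the groups of the comparison alone, and with siRNA 1 no such setting made a call. Pairing of libraries by replicate number was not clear. Same-numbered libraries of different groups correlated between -0.138 and 0.427, the others between -0.429 and 0.378. Not every library correlated best with its own number. With 3 libraries per group these values cannot decide whether the numbers mark pairs. With the replicate block, 13 genes were called with siRNA 2 and 3 in the average. Leaving out 1 library at a time gave 0 to 1 calls with siRNA 1, 1 to 19 with siRNA 2, 0 to 5 in the average and 0 to 1 between the siRNAs. The ratio of Atp5b to Ndufb2, the highest and lowest tested genes in TPM, was 107 in TPM. It was 98.1 to 122.7 over RPKM, canonical length (where Ndufs6 was the lowest) and each control left out. With each control left out, the complex V share stayed between 42.5% and 43.1%. RPKM cannot change that share within a library, and canonical length was not applied to it. No called value changed sign. The causes were not tested. Changes of about 0.2 on the log2 scale, near the siRNA 2 median of -0.24 without a length offset, are close to the spread between control libraries. The median was smaller with siRNA 1, at -0.09, and with the length offset, at -0.06 (siRNA 2) and -0.04 (siRNA 1). Absence of such changes from the calls does not show that levels were equal.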
